A study of Mus musculus with 4 samples.

Results

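Regulatory T cells are CD4 T cells that restrain other T cells and depend on the transcription factor Foxp3. They are known for a high-affinity interleukin 2 receptor, whose alpha chain CD25 is encoded by *Il2ra*, and for the inhibitory receptor CTLA-4, which competes for the ligands of CD28. In transplanted organs they are studied as cells that can limit the response of recipient T cells against donor tissue. Here they are the cells of mouse heart grafts that were selected on transcripts of *Foxp3* and CD3. A member had over 200 detected genes, under 20% of its unique molecular identifiers (UMIs, each counting 1 captured transcript) from mitochondrial genes, at least 1 UMI over *Cd3d*, *Cd3e* and *Cd3g*, which encode the CD3 chains of the T cell receptor complex, and at least 1 UMI of *Foxp3*. It had no UMI of *Cd8a*, *Cd8b1* or *Cdh5*, markers of CD8 T cells and endothelium, and under 10 UMIs of *Lyz2*, a myeloid lysozyme. This rule held for 70 of the 53824 cells in the merged matrix.

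The cells came from 4 hearts transplanted into the abdomen of C57BL/6J recipients and collected on day 5. Allogeneic grafts (2) were BALB/c hearts, labelled Balb/C, and syngeneic grafts (2) were C57BL/6J hearts. Donors and recipients were male mice of 8 to 10 weeks, and whole grafts were dissociated without a sort. Barcode suffixes split the cells into libraries 1 to 4, and no source used here ties a library to a graft, so the cells were treated as 1 pooled sample, no condition was compared and no value has a replicate test. Library totals ranged from 96020294 to 166079145 UMIs, and members had a median of 6934 UMIs (range 1637 to 67822).

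Libraries differed widely in the number of members. Library 4 held 57 of the 70, library 1 held 7, library 3 held 4 and library 2 held 2. Of the cells past the filters on genes and mitochondrial UMIs, members made up 0.504% in library 4 (57 of 11300, exact Clopper-Pearson 95% interval 0.382 to 0.653) and 0.0152% in library 2 (2 of 13154, 0.00184 to 0.0549), with 0.0678% (0.0273 to 0.140) in library 1 and 0.0406% (0.0111 to 0.104) in library 3. Relative to T cells, the libraries were closer. Members were 5.39% of the 1299 cells with CD3 transcripts within the same limits (4.22 to 6.76), namely 7.37% in library 1, 1.77% in library 2, 6.67% in library 3 and 5.53% in library 4, with intervals that all overlapped. The share moved with the minimum of CD3 UMIs and was 10.5% of cells with at least 2. Set against CD4 T cells alone, members were 23.2% (18.5 to 28.4) of the 302 cells that were members or had a *Cd4* UMI and no *Foxp3* UMI. A *Cd4* UMI was not required of members, and 47 of the 70 had one. All intervals cover counting error only.

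**Figure D1:**
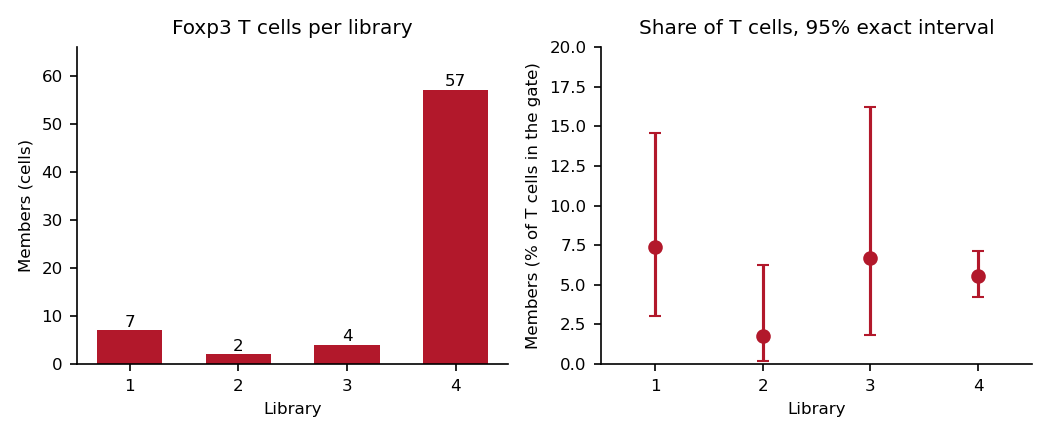
Left, bars give the number of members in each library. Right, points give members as a percentage of T cells within the gate, with exact 95% intervals of counting error. Library 4 held 57 of the 70 members, whereas the shares of T cells ranged from 1.77% to 7.37% with overlapping intervals.

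Free RNA can place a *Foxp3* UMI in a cell that does not express the gene, so the gate was checked on cells that should lack it. In library 4, 0.488% of myeloid cells without CD3 UMIs (22 of 4508, median 14937 UMIs) had a *Foxp3* UMI, against 5.53% of the T cells in the gate at a median of 4429 UMIs. Among CD8 T cells of library 4 it was 1.23% (8 of 648, median 14416.5 UMIs), the highest share among the cells that should lack it. Over all libraries, 5 of 18109 endothelial cells had one. The 37 cells with *Foxp3* and no CD3 UMI each had exactly 1 *Foxp3* UMI. In the 30 of these in library 4, *Il2ra* stood at 4 CPM and *Ctla4* at 6 CPM, where CPM is a gene's UMIs per 1000000 non-mitochondrial UMIs of the pooled cells. The other limits removed cells that did carry such transcripts. The 21 library 4 cells left out for *Cd8a* or *Cd8b1* had *Il2ra* at 313 CPM, *Ctla4* at 502 CPM and *Ikzf2* at 357 CPM at a median of 22738 UMIs, and the highest *Foxp3* count among the 24 such cells of all libraries was 22. The highest *Lyz2* count in a member was 8, and the 11 cells left out on *Lyz2* alone had 10 or more.

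Some members of library 4 went against the label. A collagen-rich cell had 67822 UMIs, the most of any member, with 1 UMI of *Foxp3*, 21 of *Cd3e*, 0 of *Cd3d* and *Cd3g*, and 0 of *Cd4*, *Il2ra*, *Ctla4*, *Ikzf2* and *Tnfrsf18*. Fibroblast markers (*Dcn*, *Bgn*, *Col1a1*, *Col1a2*, *Col3a1*, *Pdgfra*) made up 4.59% of its UMIs, and it held 96.6% of all fibroblast-marker UMIs in the 57 members of library 4. Another member with 3693 UMIs and 1 *Foxp3* UMI also had 0 UMIs of *Cd4*, *Il2ra*, *Ctla4*, *Ikzf2* and *Tnfrsf18*, and a member with 6322 UMIs had 1 *Tnfrsf18* UMI and 0 of the others. A member of library 1 with 36338 UMIs had 5.65% of UMIs from these markers, but also 5 *Foxp3* and 17 *Ikzf2* UMIs. A library 3 member had 1.09% of UMIs from endothelial markers. Levels in library 4 are therefore given over all 57 members and, where marked, over the 56 without the collagen-rich cell. Libraries shared 40 to 60 barcodes per pair, and 1 member had a barcode that occurs in another library.

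*Foxp3* (ENSMUSG00000039521, GRCm38 chromosome X, 7573644 to 7595245) had 1 to 17 UMIs per member with a median of 4, and 17 members had a single UMI. These values chose the members and are a description. Cells with 1 *Foxp3* UMI were mixed. In the 15 of library 4 other than the collagen-rich cell, pooled *Il2ra* was at 846 CPM (exact Poisson 95% interval 659 to 1071), *Ctla4* at 1742 CPM (1467 to 2053) and *Ikzf2* at 1595 CPM (1332 to 1894). With that cell included, they were at 462, 951 and 871 CPM. A UMI of *Il2ra* was found in 10, of *Ctla4* in 11 and of *Ikzf2* in 12 of these 15 shallow cells (median 3993 UMIs), against 22, 21 and 22 of the 22 cells with 6 or more *Foxp3* UMIs (median 13905.5 UMIs). In those 22 cells, the levels were 940, 1433 and 1071 CPM. Just outside the threshold, the 185 CD4 T cells with no *Foxp3* UMI had 152, 630 and 153 CPM. Levels of these genes differed between 0 and 1 *Foxp3* UMI by more than their counting intervals, without a further ordered increase from 1 UMI to 6 or more.

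**Figure D2:**
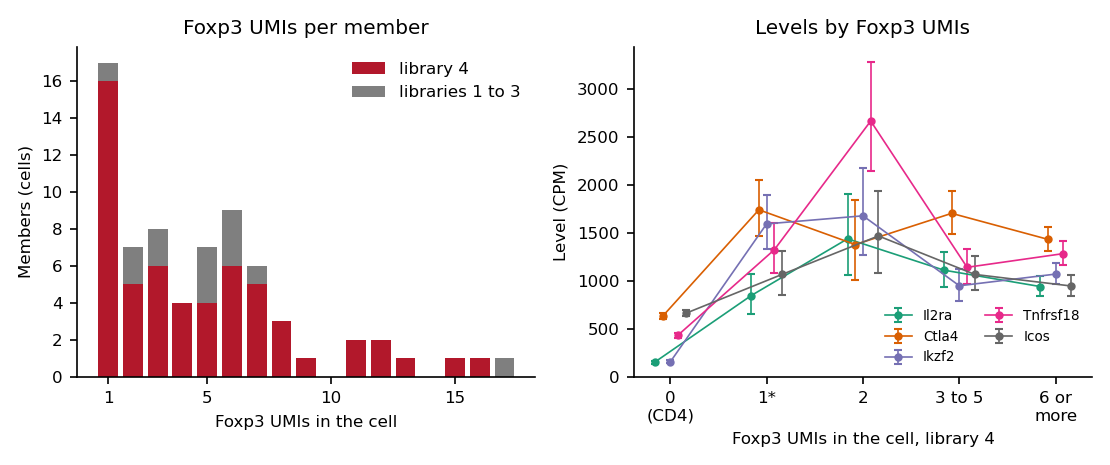
Left, a histogram of *Foxp3* UMIs per member, with library 4 in red and libraries 1 to 3 in gray. Right, levels in CPM with exact Poisson 95% intervals by *Foxp3* UMIs in library 4, where 0 is CD4 T cells and the asterisk at 1 marks that the collagen-rich cell is left out. *Il2ra* is 152 CPM at 0 and 846 CPM at 1 UMI.

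The label was checked against markers that the gate did not use. *Il2ra* (ENSMUSG00000026770, chromosome 2, 11642807 to 11693193) was at 87 CPM in the members of library 1, 173 CPM in library 2, 963 CPM in library 3 and 892 CPM in library 4. Library 1 stood low, with 8 *Il2ra* UMIs over 7 cells (interval 38 to 172 CPM), below libraries 3 and 4 by more than counting error. *Ctla4* (ENSMUSG00000026011, chromosome 1, 60887000 to 60915832) was at 622, 864, 872 and 1376 CPM in libraries 1 to 4. *Ikzf2* (ENSMUSG00000025997, chromosome 1, 69531214 to 69687245), which encodes Helios, a zinc finger factor of regulatory T cells, was at 1070, 432, 2019 and 1031 CPM. *Tnfrsf18* (ENSMUSG00000041954, chromosome 4, 156026164 to 156028895), encoding the costimulatory receptor GITR, was at 786, 173, 688 and 1198 CPM. All 4 of these genes had a UMI in 45 of the 57 library 4 members (78.9%), 8 of the 13 other members, 32 of the 185 *Foxp3*-0 CD4 T cells of library 4 (17.3%) and 0 of its 4508 myeloid cells. Median depths were 7893 UMIs in these members and 9359 UMIs in the CD4 T cells.

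The comparison with other CD4 T cells asks how members differed from T cells of the same graft tissue that carry *Cd4* but no *Foxp3*. It was made within library 4, with 57 members against 185 cells, as the log2 ratio of CPM with 10 CPM added to both, over the 3480 genes with at least 50 CPM in either and without the genes of the gate. The median log2 ratio over all of them was -0.00055. Of these genes, 192 (5.52%) were at least 2-fold higher in members and 44 (1.26%) at least 2-fold lower, by size alone. Without the collagen-rich cell 120 of 3424 (3.50%) were higher and 58 (1.69%) lower, and 98 of the 192 and 37 of the 44 were shared with the first counts. A CD4 T cell with *Foxp3* below detection falls in the second set, and 21 of the 57 members lacked a *Cd4* UMI.

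All 4 markers of regulatory T cells outside the gate were at least 2-fold higher in members, beside 5.52% of all genes tested. *Ikzf2* was at 1031 CPM against 153 in *Foxp3*-0 CD4 T cells and 85.4 in CD8 T cells, a ratio to CD4 of 6.73 (counting interval 5.93 to 7.64) with all members and 7.51 (6.62 to 8.52) without the collagen-rich cell. *Il2ra* was at 892 CPM against 152 in CD4 and 166 in CD8 T cells, 5.87-fold (5.15 to 6.69) over CD4. *Tnfrsf18* was 2.77-fold (2.52 to 3.04) and *Ctla4* 2.19-fold (2.01 to 2.37) above CD4. *Ctla4* fell under 2-fold, at a log2 ratio of 0.47, when cells with 3 or more markers of another cell type were left out of both sets, which left 6 members. The order differed by detection. A *Ctla4* UMI was found in 87.7% of members and 87.6% of CD4 T cells, and after thinning every cell to 1000 UMIs in 59.6% and 45.4%, whereas *Il2ra* was found in 42.1% and 5.46% of thinned cells. In myeloid cells of library 4 at a median of 14937 UMIs, 8.72% had a *Ctla4* UMI and 4.90% an *Il2ra* UMI.

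**Figure D3:**
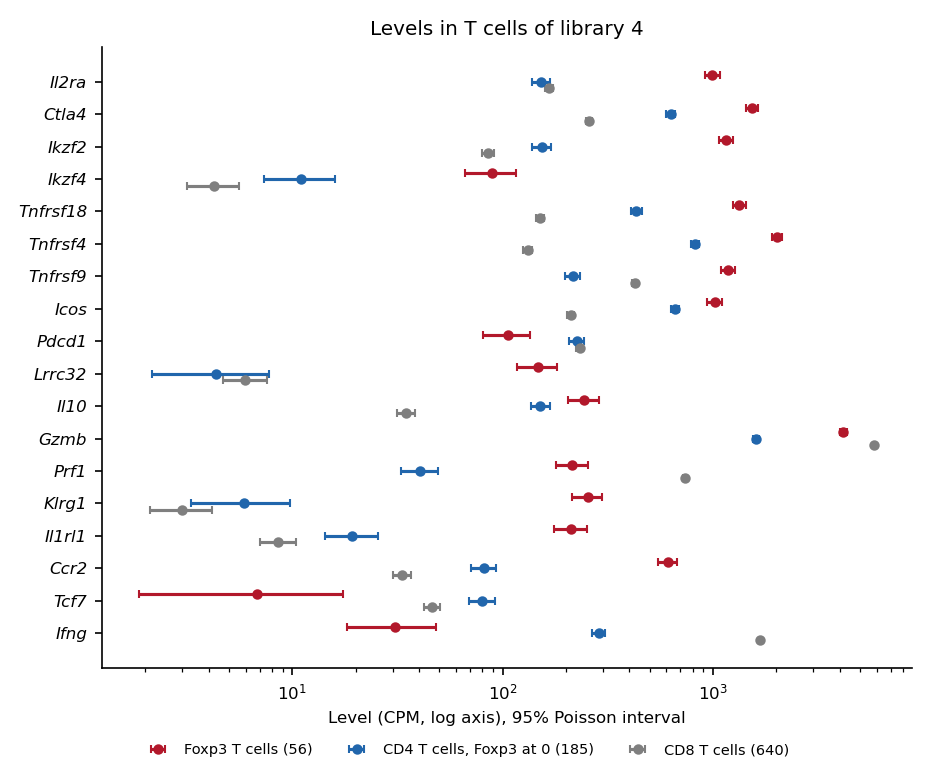
Points give levels in CPM on a log axis with exact Poisson 95% intervals in library 4, for the 56 members without the collagen-rich cell, 185 CD4 T cells with *Foxp3* at 0 and 640 CD8 T cells. *Ikzf2*, *Klrg1* and *Lrrc32* lie higher in members than in both other sets, and *Ifng* and *Tcf7* lower.

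Transcription factors linked to the regulatory T cell state did not move together. Of 12 tested, 2 were at least 2-fold higher and 2 lower, with a median log2 ratio of -0.05, or 2, 1 and 0.07 without the collagen-rich cell. Beside *Ikzf2*, *Ikzf4*, which encodes the Foxp3 corepressor Eos, was at 79.4 CPM against 11.0. *Runx3*, a factor of cytotoxic and Th1 programs, was at 68.7 against 207 CPM and the activation-induced *Nr4a2* at 53.5 against 122 CPM, which was within 2-fold without the collagen-rich cell (57.9 CPM). *Foxo1*, *Satb1*, *Runx1* and *Rel* stayed within 2-fold.

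In the interleukin 2 axis, the receptor's alpha chain stood apart from its partners. *Il2rb*, the beta chain, was at 530 CPM in members and 415 in CD4 T cells, and *Il2rg*, the shared gamma chain, at 249 and 194 CPM. Of 11 genes, *Il2ra* and *Socs2*, a feedback inhibitor of cytokine signaling, were at least 2-fold higher and 0 lower. *Socs2* was at 150 against 47.5 CPM. The transducers *Stat5a* (39.7 against 70.3 CPM) and *Stat5b* (93.2 against 68.4 CPM) stayed within 2-fold.

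Of 11 costimulation genes tested, 5 were at least 2-fold higher and 1 lower, with a median log2 ratio of 0.62, or 0.77 without the collagen-rich cell. *Tnfrsf9*, encoding 4-1BB, was at 1063 CPM against 215 in CD4 and 425 in CD8 T cells. *Tnfrsf4*, encoding OX40, was at 1809 CPM against 821 and 132, and *Tnfrsf1b*, encoding TNFR2, at 246 against 110 and 94.7. *Cd27*, another receptor of the tumor necrosis factor receptor family, was at 290 against 185 CPM. *Icos*, a relative of CD28, was at 915 against 661 CPM and *Cd28* itself at 472 against 427 CPM. *Pdcd1*, encoding the inhibitory receptor PD-1, was lower at 94.7 against 226 CPM, but within 2-fold in several alternatives, among them with 50 CPM added (log2 ratio -0.93), with all libraries pooled (-0.92), with at least 2 *Foxp3* UMIs (-0.99) and with members that had a *Cd4* UMI (-0.86). *Lag3* was at 173 against 265 CPM with a UMI in 16 of 57 members.

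The signal transducer STAT5, activated by the interleukin 2 receptor, recognizes a palindrome of the letters TTCNNNGAA, where N is any base. Promoter windows (250 bases before to 50 after a RefSeq start, GRCm38.p6) were read for *Foxp3* and the higher genes of the marker, interleukin 2 and costimulation lists. Of 9 genes, 7 had windows, 9 in all. The letters read the same on both strands, so 1 search covers both. The letters occurred in 4 windows of 4 genes and in 8.30% of all 32851 windows, and the 4 are shown since they hold it. Capitals mark the match, whose first base lies at -139 from the start of the window's transcript in *Foxp3*, -99 in *Tnfrsf18*, -136 in *Tnfrsf9* and -181 in *Tnfrsf1b*. *Foxp3* and *Tnfrsf9* each had another window, at another start, without a match. A match is a description and not a binding site, and absence in another window says nothing of the factor.
Foxp3 promoter (chrX:7580233-7580532, plus strand): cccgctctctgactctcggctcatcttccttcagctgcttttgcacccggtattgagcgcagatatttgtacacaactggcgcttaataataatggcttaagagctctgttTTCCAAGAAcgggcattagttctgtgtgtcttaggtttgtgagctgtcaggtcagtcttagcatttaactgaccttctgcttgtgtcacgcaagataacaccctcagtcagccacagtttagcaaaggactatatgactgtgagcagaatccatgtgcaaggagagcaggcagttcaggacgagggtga
Tnfrsf18 promoter (chr4:156026072-156026371, plus strand): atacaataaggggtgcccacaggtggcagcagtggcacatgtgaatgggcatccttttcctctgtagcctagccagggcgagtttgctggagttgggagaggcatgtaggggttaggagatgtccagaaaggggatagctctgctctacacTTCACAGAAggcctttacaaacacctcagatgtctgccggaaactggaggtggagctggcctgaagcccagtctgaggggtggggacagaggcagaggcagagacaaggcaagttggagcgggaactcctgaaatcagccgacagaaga
Tnfrsf9 promoter (chr4:150927749-150928048, plus strand): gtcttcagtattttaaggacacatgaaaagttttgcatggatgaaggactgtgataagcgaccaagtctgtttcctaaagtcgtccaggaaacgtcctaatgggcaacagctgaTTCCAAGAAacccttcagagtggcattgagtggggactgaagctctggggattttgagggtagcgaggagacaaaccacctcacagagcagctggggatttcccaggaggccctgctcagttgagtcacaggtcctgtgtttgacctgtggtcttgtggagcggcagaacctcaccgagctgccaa
Tnfrsf1b promoter (chr4:145246821-145247120, minus strand): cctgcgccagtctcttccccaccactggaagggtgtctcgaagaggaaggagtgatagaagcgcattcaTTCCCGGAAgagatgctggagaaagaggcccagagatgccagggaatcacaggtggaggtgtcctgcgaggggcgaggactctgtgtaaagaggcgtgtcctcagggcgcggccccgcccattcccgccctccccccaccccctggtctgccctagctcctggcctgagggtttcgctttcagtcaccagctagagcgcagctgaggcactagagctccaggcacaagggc

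Genes tied to suppression were uneven. Of 9 tested, 3 were at least 2-fold higher and 0 lower, with a median log2 ratio of 0.61. *Lrrc32*, encoding GARP, which anchors latent TGF-beta on the cell surface, was at 148 CPM against 4.32 in CD4 and 5.98 in CD8 T cells, and 31 of 57 members had a UMI. Outside library 4 it did not stand apart, at 64.0 CPM (8 UMIs, 27.6 to 126) in 13 members and 59.0 CPM (15 UMIs, 33.0 to 97.4) in 47 CD4 T cells, where 1 cell held 86.7% of the UMIs. Those members and CD4 T cells came from the other libraries in unlike parts. *Gzmb*, the protease granzyme B, was at 3748 CPM in members, 1605 in CD4 and 5868 in CD8 T cells, so members lay between the other sets. A *Gzmb* UMI was found in 51 members, with a median of 20 UMIs and a highest value of 251. In library 4, 51.7% of myeloid cells (57.4 CPM) and 45.3% of endothelial cells (70.6 CPM) also had one. Over the 6 members with under 3 markers of any other cell type, the log2 ratio of *Gzmb* to CD4 T cells was 0.40, against 1.22 over all 57. The ratio for *Prf1*, perforin, rested on few cells, since 11 members had a UMI and 1 of them held 69.3% of the 127 UMIs. *Il10* was detected in 18 members at 218 CPM against 151 in CD4 T cells, *Tgfb1* was at 240 against 195 CPM, and the ectonucleotidases *Entpd1* and *Nt5e* were at 70.3 against 42.4 and 90.1 against 77.0 CPM. *Il12a* had no UMI and *Ebi3* 11, each below the minimum level.

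Genes of effector and tissue regulatory T cells were among those with the largest ratios. Of 12 tested, 5 were at least 2-fold higher and 0 lower, with a median log2 ratio of 0.95, or 7 and 1.05 without the collagen-rich cell. *Klrg1*, an inhibitory receptor of differentiated lymphocytes, was at 228 CPM against 5.89 in CD4 and 2.99 in CD8 T cells, and 26 of 57 members had a UMI. *Il1rl1*, encoding the interleukin 33 receptor ST2, was at 196 CPM against 19.3 and 8.56, in 22 members. Both were found in 16 members, *Klrg1* alone in 10, *Il1rl1* alone in 6 and neither in 25, while cells with *Klrg1* were deeper (median 9558.5 UMIs against 5620). The actin-capping *Capg* was at 825 against 313 CPM and the nuclear receptor gene *Rora* at 264 against 112 CPM. *Gata3* (84.0 against 51.5 CPM), *Maf* (495 against 360) and *Batf* (197 against 187) stayed within 2-fold. *Itgae*, encoding CD103, had 4 UMIs in 3 members, *Ccr8* 7 UMIs and *Pparg* 3 UMIs, below the minimum level.

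**Figure D4:**
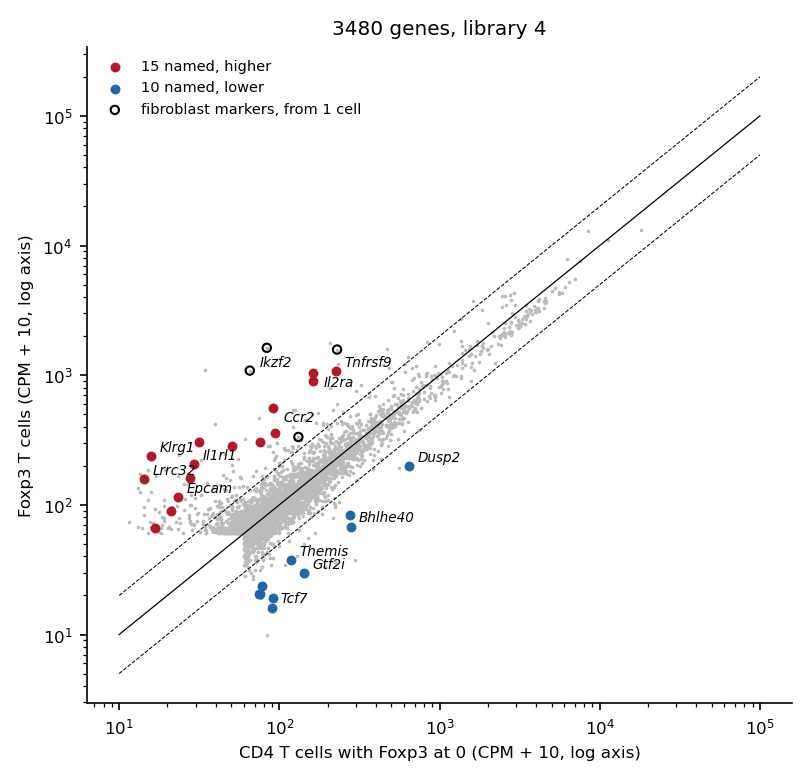
Each point is 1 of 3480 genes in library 4, with CPM plus 10 in CD4 T cells (x, log axis) and in members (y, log axis), and dashed lines mark 2-fold. *Klrg1* and *Lrrc32* lie farthest above the line among the 15 named higher genes, and open circles mark 4 fibroblast markers that came almost wholly from 1 cell.

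Among homing genes, *Ccr2*, the receptor for monocyte chemoattractant proteins, was at 550 CPM in members against 81.3 in CD4 and 33.2 in CD8 T cells, with a UMI in 48 of 57 members. Myeloid cells of the library, chosen by *Lyz2*, also had it, at 384 CPM. *Lyz2* itself, which the gate limited in both sets, was at 257 CPM in members and 220 CPM in CD4 T cells. The macrophage gene *C1qb* was at 97.8 and 184 CPM. The part of myeloid RNA in the *Ccr2* level was not tested. *Ccr4* was at 53.5 against 6.29 CPM, and *Itgb7*, an integrin beta chain, at 527 against 207 CPM. *Itgal*, the alpha chain of LFA-1, was lower at 87.1 against 213 CPM, and so were *Cxcr6* at 74.8 against 174 CPM and *Itga4* at 93.2 against 209 CPM. That made 3 higher and 3 lower of 12, or 3 and 2 without the collagen-rich cell, when *Cxcr6* and *Itga4* came within 2-fold and *Itgb1*, an integrin beta chain, was lower at 112 against 297 CPM. *Ccr4* (log2 ratio 0.88) and *Itgal* (-0.94) came within 2-fold with 50 CPM added. *Cxcr3*, the receptor for interferon-induced chemokines, was at 122 against 145 CPM.

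Genes of resting T cells split. *Tcf7*, a factor of naive and memory T cells, had 4 UMIs in 57 members (6.11 CPM) against 80.2 CPM, and *Bcl2*, an inhibitor of cell death, was at 21.4 against 60.9 CPM. The *Tcf7* log2 ratio of -2.48 was -0.91 without members with 3 or more markers of another cell type, which left 6 members. *Il7r*, the interleukin 7 receptor, was at 304 against 127 CPM, but came within 2-fold with all libraries pooled (log2 ratio 0.95) and as a mean of per-cell CPM (0.92). *Igfbp4* owed 96.2% of its UMIs to the collagen-rich cell and was at 6.82 against 34.6 CPM without it, so 3 higher and 2 lower of 9 became 2 and 3. *Ccr7* and *Lef1* stayed within 2-fold.

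Of 3 helper genes tested, 1 was at least 2-fold lower and 0 higher. *Ifng*, interferon gamma, was at 27.5 CPM in members against 287 in CD4 and 1675 in CD8 T cells, with 18 UMIs in 14 members. The log2 ratio to CD4 T cells was -2.99, but -1.17 as a mean of the CPM of single cells. *Csf2*, *Il4*, *Il5*, *Il13*, *Il17a*, *Il21* and *Il22* had no UMI in library 4 members, where 3 UMIs would correspond to 4.58 CPM. In CD4 T cells *Il13* was at 31.8 CPM and *Il21* at 33.8 CPM. The Th1 factor *Tbx21* (32.1 against 50.7 CPM) and *Stat4* (82.5 against 123) stayed within 2-fold of CD4 T cells. Of 7 cytotoxic genes tested, 1 was at least 2-fold lower, *Ctsw*, a cathepsin of cytotoxic cells, at 24.4 against 97.8 CPM. The chemokine gene *Ccl4* had a log2 ratio of 0.47. The granule gene *Nkg7* was at 718, 1014 and 2030 CPM in members, CD4 and CD8 T cells, and *Gzma* at 115, 141 and 1179 CPM.

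Over all genes tested, the 15 with the highest ratios that were spread over at least 10 cells with under 25% of UMIs in 1 cell were *Klrg1*, *Lrrc32*, *Mcub*, *Il1rl1*, *Ikzf2*, *Ccr2*, *Ltb4r1*, *Ecm1*, *Il2ra*, *Epcam*, *Tnfrsf9*, *Ikzf4*, *Ighm*, *Wls* and *Fam46a*. *Mcub*, a subunit of the mitochondrial calcium uniporter, was at 293 against 21.6 CPM, and its log2 ratio fell from 3.26 to 0.34 when cells with 3 or more markers of another cell type were left out of both sets. With the same cells left out, *Wls* (from 2.00 to -1.16) and *Fam46a* (from 1.94 to -0.28) changed sign. That setting left 6 members and 37 CD4 T cells, so single UMIs can move these values. *Ecm1*, extracellular matrix protein 1, was at 272 against 40.5 CPM and *Ltb4r1*, a leukotriene B4 receptor, at 151 against 17.7 CPM. *Epcam*, an adhesion molecule best known in epithelium, was at 105 against 13.4 CPM in 24 members. *Ighm*, the immunoglobulin mu chain, was at 298 against 65.2 CPM in 41 members. Summed B cell markers stood at 76.4 CPM in these members, led by *Cd79a* (19 UMIs in 2 cells), and at 2.36 CPM in CD4 T cells, and their part in the *Ighm* level was not tested.

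The 10 lowest by the same rule were *Tcf7*, *Gtf2i*, *Tbc1d4*, *Bhlhe40*, *Chst2*, *Ramp3*, *Bcl2a1d*, *Evl*, *Dusp2* and *Themis*. *Bhlhe40*, a transcription factor of activated T cells, was at 58.0 against 269 CPM. Its log2 ratio of -2.03 was -0.78 without members with 3 or more markers of another cell type, which left 6 members. Outside library 4 it was 0.62. *Dusp2*, a phosphatase of MAP kinases, was at 189 against 635 CPM and *Bcl2a1d*, of the Bcl2 family, at 73.3 against 265 CPM, but reads of its near-identical copies could not be told apart. *Themis*, a regulator of T cell receptor signaling, was at 27.5 against 108 CPM. *Tbc1d4*, a Rab GTPase activator, was at 9.16 against 81.7 CPM, and *Gtf2i*, a general transcription factor gene, at 19.9 against 133 CPM.

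In library 4, 0 of 18 cell cycle genes were 2-fold different, with a median log2 ratio of -0.34. Outside library 4 the median was 1.29, where 1 of the 13 members held 339 UMIs of these genes and the next highest 70. In library 4 their summed share of UMIs was 0.511% in members, 0.620% in CD4 and 0.594% in CD8 T cells. *Mki67* or *Top2a* was detected in 30 of 57 members. After thinning to 1000 UMIs that share was 26.3% in members, 24.0% in CD4 and 28.4% in CD8 T cells. Of 14 glycolysis genes 1 was higher, the lactate transporter *Slc16a3* at 273 against 110 CPM, and the median log2 ratio was 0.0052.

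Interferon-induced genes were mostly within 2-fold. Of 17 tested 2 were higher and 0 lower, with a median log2 ratio of 0.35. Without the collagen-rich cell 1 was higher and 1 lower, *Ifit1*, an interferon-induced antiviral gene, at 22.2 against 64.1 CPM. *Igtp*, an immunity-related GTPase, was at 501 against 164 CPM, with UMIs in 50 members. *Iigp1*, another GTPase of this family, was at 529 against 116 CPM with the collagen-rich cell, which held 74.3% of its UMIs, and at 152 CPM without it. The proteasome subunit gene *Psmb8* was at 978 against 939 CPM.

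**Figure D5:**
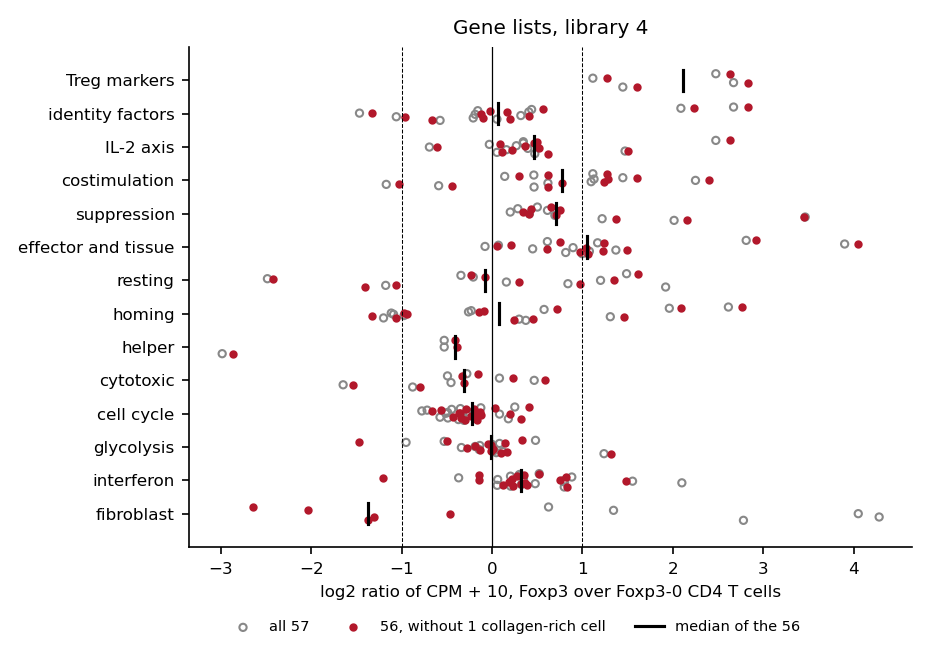
Each point is a gene of a list, placed by its log2 ratio of CPM plus 10 in library 4, members over CD4 T cells with *Foxp3* at 0. Open points use all 57 members and filled points the 56 without the collagen-rich cell, black bars are medians of the filled points and dashed lines mark 2-fold. The fibroblast list moves from a median of 2.78 to -1.38. Its median is 0.31 (not drawn) when cells with over 1% of UMIs from 1 other-cell list are left out of both sets.

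Transcripts of other cells were present in members. At least 3 of 10 macrophage markers had UMIs in 86.0% of library 4 members and 77.8% of CD4 T cells, and their summed level was 638 against 792 CPM, with *Lyz2* the most abundant at 257 and 220 CPM. The gate kept *Lyz2* under 10 UMIs per cell in both sets, so its level and this sum were limited by selection. Fibroblast markers summed to 4923 CPM in members and 676 CPM in CD4 T cells, and to 186 CPM without the collagen-rich cell. Of 5 tested, 4 were higher with that cell and 4 lower without it. However, 6 of the 185 CD4 T cells also had over 1% of UMIs from 1 list of other-cell markers. With such cells left out of both sets (56 members, 179 CD4 T cells), the fibroblast median log2 ratio was 0.31. It was -1.38 with only the collagen-rich cell left out. The macrophage medians in these 2 settings were 0.37 and -0.58. The granulocyte markers *S100a8* and *S100a9* were lower, at 30.5 against 119 and 26.0 against 211 CPM. Their median log2 ratio was -2.14 over all 57 members and -0.75 with cells over 1% left out of both sets. Markers of natural killer cells summed to 21.4 CPM with *Ncr1* and *Klrb1a* at 0, dendritic markers to 3.05 CPM with *Flt3*, *Xcr1*, *Clec9a* and *Cd209a* at 0, and erythroid markers to 32.1 CPM, led by *Hbb-bs* with *Alas2* at 0. Cardiomyocyte markers summed to 15.3 CPM, led by *Tnnt2* with *Mb* and *Tnni3* at 0. The gamma-delta constant gene *Trdc* had no UMI. Endothelial markers summed to 510 CPM, led by *Ly6c1* with 84.2% of its UMIs in 1 cell, and to 184 CPM without the collagen-rich cell. The T cell receptor list had 0 of 4 tested genes past 2-fold, with *Trac*, the alpha constant gene, at 730 against 790 CPM. *Trbc1* and *Trbc2* were both detected in 32 of 57 members, but these genes are near-identical and their reads may be split.

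The 13 members outside library 4 were few, and transcripts of other cells varied between their libraries. Fibroblast markers summed to 22661.5 CPM in library 1, 86.4 CPM in library 2 and 1101 CPM in library 3, and over the 13 to 16811 CPM, or 497 CPM without the 2 members with over 1% of UMIs from 1 list of other-cell markers. In library 1, a single member had 5.65% of its 36338 UMIs from fibroblast markers. Endothelial markers summed to 295, 1729 and 2569 CPM, and macrophage markers to 1561, 0 and 596 CPM. All 7 members of library 1 had *Ikzf2* UMIs and 6 had *Klrg1* UMIs (47 in all), whereas the 6 members of libraries 2 and 3 had none of *Klrg1*. *Gzmb* had 36 UMIs over the 13, of which 35 were in 1 cell of library 3, and *Il10* had none. *Il1rl1* was detected in 9 of the 13. Libraries 1, 2 and 3 gave 7, 2 and 4 of the members, but 12, 26 and 9 of the *Foxp3*-0 CD4 T cells. Differences between libraries thus enter ratios of the pooled sets, and their part was not tested. Against the 47 *Foxp3*-0 CD4 T cells of these libraries pooled, several log2 ratios had the opposite sign to library 4. Of genes past 2-fold in library 4 these were within 2-fold, at -0.10 for *Igtp*, -0.37 for *Il7r*, -0.55 for *Ly6c1*, 0.95 for *Pdcd1* and 0.62 for *Bhlhe40*. Of genes within 2-fold in library 4, some passed it in the opposite direction, namely *Cdca8* (1.70), *Cdk1* (1.60), *Birc5* (1.57), *Stat5a* (1.48), *Ccl4* (-1.20) and *Pecam1* (-1.01). By contrast, *Il2ra* (248 against 11.8 CPM), *Ctla4* (688 against 146) and *Ikzf2* (1176 against 86.6) were higher in these members, as in library 4. The 11.8 CPM of *Il2ra* was 3 UMIs in 2 of the 47 CD4 T cells, at the floor of that set. *Foxp3* stood at 513, 778 and 551 CPM in libraries 1 to 3, and at 419 CPM in library 4.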

How the data were processed

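The authors deposited a single merged matrix of UMI counts per gene and cell, without normalization, which they made with Cell Ranger 3.0.0 by aligning reads of 3' libraries to mm10 with Ensembl 92. The 70 members, the gene lists and the comparisons were chosen with earlier results of these data known. Cells with over 200 genes and under 20% mitochondrial UMIs were used and no doublet caller was run. The study marked doublets with scran, but whether they were removed before deposit is not given in the sources used here, so the matrix may hold doublets. Levels are pooled UMIs over non-mitochondrial UMIs (CPM), with exact Poisson intervals, and shares have exact Clopper-Pearson 95% intervals. A count of 0 allows up to 3. Cells were thinned to 1000 UMIs for shares of cells with a UMI, and 2 CD4 and 17 CD8 T cells with fewer were left out. *Foxp3*-0 CD4 T cells (232, 185 of them in library 4) passed the same gate with a *Cd4* UMI, and CD8 T cells (729, 640) had *Cd8a* or *Cd8b1* and no *Cd4* or *Foxp3*. Ratios used 10 CPM added and genes of at least 50 CPM in either set, and no test was made, since no cell could be tied to a graft. Named genes are up to 4 per list with the largest ratios, the 15 highest and 10 lowest over all genes that had UMIs in at least 10 cells with under 25% in 1 cell, and list genes given as values. Of 260 listed genes, 255 were found once and 5 were not used (*Bcl11b*, *Areg*, *Aldoa*, *Trgc1* and *Trgc2*). Some listed genes are counted in their lists but not reported here. On simulated counts at the depth of members and CD4 T cells in library 4, 199 of 200 genes changed 4-fold passed 2-fold, as did 54 of 200 changed exactly 2-fold, with 1 false call in each. These pooled counts had counting error but no spread between cells. The simulation therefore cannot give the rate of false calls in the real sets, where single cells can carry a gene. Gene positions are those of GENCODE M21 and promoters those of RefSeq. Python 3.11.15, numpy 2.4.6, scipy 1.17.1 and pandas 2.3.3 were used.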

Additional observations from a re-analysis of the deposited data

How the results depend on the processing

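No paired analysis was possible because no cell could be tied to a graft and no test was made. Depth limited genes near 5 CPM, where 3 UMIs in library 4 members correspond to 4.58 CPM. Of the 80 named genes, 53 were at least 2-fold different, and 26 of these kept 2-fold and their sign in the alternatives within library 4 and with all libraries pooled, among them *Il2ra*, *Ikzf2*, *Tnfrsf18*, *Tnfrsf9*, *Klrg1*, *Lrrc32*, *Il1rl1*, *Ccr2* and *Ifng*. *Ifng* ranged from a log2 ratio of -5.18 to -1.17, the latter as a mean of per-cell CPM. *Ctla4* (lowest log2 ratio 0.47) and *Gzmb* (0.15) fell under 2-fold when cells with 3 or more markers of another cell type were left out of both sets, which left 6 members. *Gzmb* was also under 2-fold (0.40) when only the members were so limited. The other 27 of the 53 came within 2-fold or changed sign in at least 1 of these alternatives. With 50 CPM added *Ccr4* was 0.88, *Rora* 0.96, *Ctsw* -0.99, *Itgal* -0.94, *Nr4a2* -0.74, *Chst2* -0.92, *Ramp3* -0.92 and *Wls* 0.91. Without members with 3 or more markers of another cell type *Tcf7* was -0.91 and *Bhlhe40* -0.78, and *Mcub* was 0.34 with such cells left out of both sets. Outside library 4, of those 26, *Lrrc32* (0.10), *Bcl2a1d* (-0.24), *Ecm1* (0.91), *Epcam* (0.93), *Slc16a3* (0.57), *Themis* (-0.19) and *Igtp* were within 2-fold. In that setting members and CD4 T cells came from the other libraries in unlike parts, so differences between libraries enter these ratios.

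Members numbered 112 without the limits on *Cd8a*, *Cd8b1*, *Cdh5* and *Lyz2*, and 13 without library 4. Their share of T cells was 4.08% with at least 2 *Foxp3* UMIs, 2.52% without the limits and 10.5% with at least 2 CD3 UMIs. Genes 2-fold higher and lower numbered 103 and 16 with 50 CPM added, 323 and 100 with a 20 CPM minimum, and 118 and 79 with at least 2 *Foxp3* UMIs. They numbered 996 and 796 without members with 3 or more markers of another cell type, which left 6 members. Lower genes numbered 74 without the 5% of members with the most UMIs.

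Some alternatives were added after the data were seen. With cells with 3 or more markers of another cell type left out of both sets, 950 genes were higher and 641 lower. That setting left 6 members and 37 CD4 T cells. Without the member with over 1% of UMIs from fibroblast markers, 120 genes were higher. With members that had a *Cd4* UMI, 72 were lower. Outside library 4, 660 were higher and 424 lower.

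Signs reversed for genes carried by the collagen-rich cell, and the values follow as log2 ratios in the order *Bgn*, *Col1a1*, *Col1a2*, *Col3a1*, *Igfbp4*. They were -2.59, -0.87, -2.07, -1.81 and -1.68 with at least 2 *Foxp3* UMIs, -3.72, -0.45, -3.06, -0.20 and -2.16 without members with 3 or more other markers, -1.91, -0.38, -1.18, -1.37 and -1.33 without the deepest 5%, -2.03, -0.46, -1.30, -1.38 and -1.41 without the collagen-rich cell, and -2.10, -1.09, -1.68, -1.46 and -1.22 with a *Cd4* UMI. *Ly6c1* was -0.58 with at least 2 *Foxp3* UMIs, -0.58 without the deepest 5%, -0.63 without the collagen-rich cell, -0.80 with a *Cd4* UMI and -0.55 outside library 4. *Igfbp4* was also -0.91 as a mean of per-cell CPM. With cells over 1% left out of both sets it was -1.31, the only reversed sign among the 80 named genes. Without members with 3 or more other markers, which left 6 members, *Fam46a* was -0.12, *Prf1* -0.073 and *Wls* -0.74. With such cells left out of both sets, *Bgn* was -1.16, *Col1a2* -2.10, *Fam46a* -0.28, *Igfbp4* -2.57, *S100a8* 0.65, *S100a9* 1.70 and *Wls* -1.16. Outside library 4, *Bhlhe40* was 0.62, *Igtp* -0.10, *Il7r* -0.37 and *Pdcd1* 0.95. Apart from the collagen-rich cell and smaller sets of cells, the cause was not tested.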
